A study of Mus musculus with 12 samples.

Results

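Nuclei of Cluster 4, named rostral subcortical projection neurons (PN) by the authors, were compared with nuclei of Cluster 16, their Crym-expressing PN, within each of 11 embryos. The authors' supplementary files also name Cluster 16 as caudal subcortical PN. The authors' cluster assignments gave 3884 nuclei of Cluster 4 and 1132 of Cluster 16, together 5016 of the 50550 nuclei in the series. All embryos were C57BL/6J mice labelled embryonic day 14, and nuclei of their cortices were profiled by snRNAseq, in which each RNA molecule is counted by its unique molecular identifier (UMI). Pregnant dams had been injected daily with saline or with ethanol in saline (EtOH) before collection. Saline dam S1 gave embryos S1-1 and S1-2, and saline dam S2 gave S2-1, S2-2 and S2-4, a total of 5. EtOH dam E1 gave embryos E1-1 and E1-2, and EtOH dam E2 gave E2-1, E2-2, E2-3 and E2-4, a total of 6. Batch 1 held the litters of S1 and E1 and batch 2 those of S2 and E2, and with 2 dams for each treatment the effect of a dam and that of its treatment cannot be fully told apart.

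Subcortical PN are the deep-layer neurons of the cortex whose axons leave it, for the thalamus (corticothalamic, mostly layer 6) or for the midbrain, brainstem and spinal cord (subcerebral, mostly layer 5). Fezf2 is a transcription factor needed for subcerebral identity, and Tbr1 is a factor of layer 6. Neurons of rostral and caudal cortex carry different sets of genes from early on, in part under the graded factors Nr2f1 and Nr2f2. Mc4r encodes the melanocortin 4 receptor, and Crym encodes mu-crystallin, a protein of the cytosol that binds thyroid hormone.

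Each embryo gave between 203 and 615 nuclei of Cluster 4, with a median of 301, and between 28 and 197 of Cluster 16, with a median of 108. Summed over the nuclei of an embryo, Cluster 4 held between 1681417 and 8910835 UMIs and Cluster 16 between 255534 and 2864206, so levels in Cluster 16 are the less precise. The lowest sum, and the 28 nuclei, were those of Cluster 16 in saline embryo S2-1. Of 5012 distinct barcodes in these clusters, 3 occurred in more than 1 library. Saline embryos S2-1 and S2-2 stood apart from their littermate S2-4 and from the other embryos for several genes of both clusters.

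Mc4r was higher in Cluster 4 in 10 of 11 embryos and Crym higher in Cluster 16 in 11 of 11, while Fezf2 was present in both clusters. The clusters were named from these genes, so their levels describe the clusters and do not check the names. Mc4r was at 1.14 CPM (the UMIs of a sum scaled to a common total, here after scaling by the trimmed mean of M-values, TMM) in the lowest, 5.61 in the median and 8.54 in the highest embryo of Cluster 4. In Cluster 16, Mc4r was at 0 in 9 of 11 embryos and at 3.57 CPM in the highest, S2-1, where that value is 1 UMI and Cluster 4 had 1.14 CPM, the reverse of the other embryos. Over all embryos, 218 UMIs of Mc4r were counted in Cluster 4 and 4 in Cluster 16, and the gene did not pass the filter on low counts. Crym was at 2.68, 5.02 and 11.8 CPM in the lowest, median and highest embryo of Cluster 4, and at 3.57, 31.4 and 81.5 CPM in Cluster 16. Crym was higher in Cluster 16 in 11 of 11 embryos, with a fitted log2 difference (Cluster 4 minus Cluster 16) of -2.61 ± 0.15 (SE), or 6.11-fold, and the ranges overlapped because S2-1 had 3.57 CPM in Cluster 16 and 3.04 CPM in Cluster 4. Fezf2 was at 60.1, 78.8 and 104 CPM in Cluster 4 and at 37.2, 64.4 and 89.1 CPM in Cluster 16. Its log2 difference of 0.28 ± 0.07 (SE) was under the 25% difference in level required for a call, although Fezf2 was higher in Cluster 4 in 10 of 11 embryos.

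At least 1 UMI of Mc4r was found in 4.77 ± 2.12% of Cluster 4 nuclei (SD, n = 11 embryos) and in 4 of 1132 nuclei of Cluster 16. Interneuron Cluster 5, used as a background, had 0.551% of nuclei with Mc4r at a median depth of 5910 UMIs per nucleus, against 8755.5 in Cluster 4 and 8698 in Cluster 16. Crym was found in 19.7 ± 8.0% of Cluster 16 nuclei, 4.01% of Cluster 4 nuclei and 0.278% of Cluster 5 nuclei. Thinned to 2000 UMIs per nucleus, the percentages for Crym were 4.81, 0.923 and 0.092 in the same order. Those for Mc4r were 1.26 in Cluster 4, 0.046 in Cluster 16 and 0.230 in Cluster 5, with S2-1 and S2-2 at 0 in Cluster 4. Both marker genes were thus found in a minority of the nuclei of the cluster they name. Mc4r lies on chromosome 18 of GRCm38 from 66857704 to 66860506, Crym on chromosome 7 from 120186380 to 120202111, and Fezf2 on chromosome 14 from 12342094 to 12348189, all on the minus strand.

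**Figure D1:**
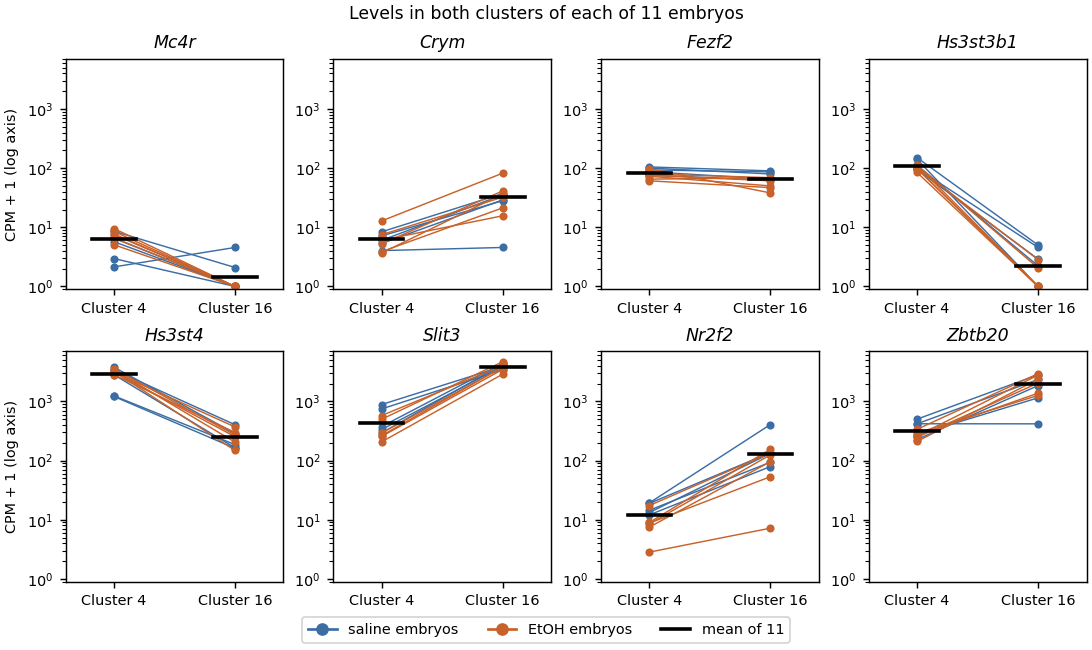
CPM + 1 on a log axis of 8 genes in each of the 11 embryos, with the Cluster 4 and Cluster 16 sums of an embryo joined by a line, saline embryos in blue, EtOH embryos in orange and the mean of 11 as a black bar. Crym lay higher in Cluster 16 in 11 of 11 embryos, and the line of S2-1 was the flattest.

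Across all genes, 9854 passed the filter and were fitted with the embryo as a block. Of these, 1151 (11.7%) were higher in Cluster 4 and 947 (9.61%) were higher in Cluster 16, called where edgeR's quasi-likelihood test gave an adjusted p below 0.05 and the level was at least 25% higher. The clusters were drawn by the authors from these same genes and nuclei, so these calls and folds describe how the clusters differ and are no independent evidence that they do. In 1247 genes (12.7%) the difference had the same direction in all 11 embryos, and in 488 genes (4.95%) the 11 sums of each cluster did not overlap at all. The median log2 difference of all genes was -0.01 with TMM. Scaling by library totals in place of TMM moved it to -0.11 and the split to 870 genes higher in Cluster 4 and 1578 higher in Cluster 16, so the balance between the directions depends on the scaling.

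**Figure D2:**
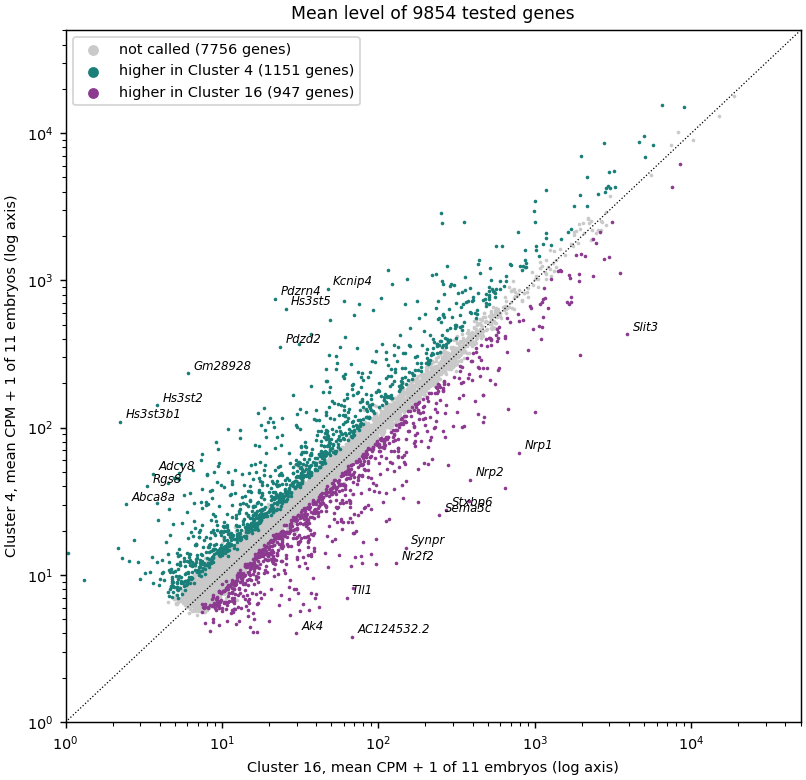
Mean CPM + 1 over 11 embryos in Cluster 16 (x axis) against Cluster 4 (y axis), both on log axes, for the 9854 genes fitted, with the line of equal levels dotted. The 1151 genes higher in Cluster 4 (green) lie above the line and the 947 higher in Cluster 16 (purple) below it, and the 20 leading genes are named.

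Of the 10 leading genes of Cluster 4, the first was Hs3st3b1, which encodes a 3-O-sulfotransferase of heparan sulfate, a sugar chain that binds many extracellular ligands. Hs3st3b1, on chromosome 11 from 63885792 to 63922290, was at 83.6, 101 and 150 CPM in the lowest, median and highest embryo of Cluster 4. In Cluster 16 it was at 0, 1.06 and 4.00 CPM, a log2 difference of 6.21 ± 0.19 (SE) that rests on 4563 against 19 UMIs. Hs3st2, of the same family, was at 114 to 172 CPM in Cluster 4 and at no more than 7.13 CPM in Cluster 16. Hs3st5, another member, was at 321 to 908 CPM against 8.84 to 40.4 CPM, with S2-1 and S2-2 at 355 and 321 CPM in Cluster 4 and the other embryos at 566 CPM or more, and Hs3st4 at 1214 to 3803 CPM against 147 to 403 CPM. For these 4 enzymes the 11 sums of each cluster did not overlap, as in 4.95% of all genes tested. Hs3st3b1, Hs3st2 and Hs3st5 were chosen as leading genes for their large folds, so this is in part given by that choice. Of all 25 clusters, Hs3st4 was highest in Cluster 19, at 3662 CPM against 2722 CPM in Cluster 4 (without TMM).

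Of the other leading genes of Cluster 4, Pdzrn4, which encodes a ubiquitin ligase with PDZ domains, was at 649 to 840 CPM against 6.73 to 46.4 CPM in Cluster 16. Kcnip4, a partner of A-type potassium channels, had a log2 difference of 4.12 ± 0.21 (SE), and Adcy8, a calcium-stimulated adenylyl cyclase, of 3.88 ± 0.19. Rgs8, a regulator of G protein signalling, differed by 3.98 ± 0.17, Pdzd2 by 3.88 ± 0.14 and the transporter gene Abca8a by 4.43 ± 0.25. In Cluster 16 some of these were near the floor, with Abca8a at no more than 3.57, Rgs8 at 4.89 and Adcy8 at 7.13 CPM, so their folds are less precise. Leading genes were chosen to go the same way in all 11 embryos, so each leading gene of Cluster 4 was higher there in 11 of 11 by that choice. Gm28928, a long noncoding RNA, differed by 5.37 ± 0.30, but its level in Cluster 4 was 20.9 CPM in S2-1 and 7.29 CPM in S2-2 against 133 to 394 CPM in the other 9 embryos. The same embryos were the lowest in Cluster 4 for Kcnip4 (475 and 318 CPM against 728 to 1392), Pdzd2 (137 and 131 against 341 to 463), Rgs8 (19.4 and 17.1 against 35.4 to 53.7) and Abca8a (14.1 and 6.45 against 25 to 46.1). Adcy8 differed from these, with S2-1 the highest in Cluster 4 at 138 CPM and the other embryos at 21.8 to 75.4 CPM.

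The leading genes of Cluster 16 included several of axon guidance. Slit3, a secreted repellent read by Robo receptors, was at 2895, 3918 and 4700 CPM in the lowest, median and highest embryo of Cluster 16 and at 206, 334 and 886 CPM in Cluster 4. Its log2 difference was -3.38 ± 0.21 (SE), or 10.4-fold, and it lies on chromosome 11 from 35121224 to 35708507. In Cluster 4, S2-1 and S2-2 had 746 and 886 CPM of Slit3 and the other embryos 206 to 577 CPM. Nrp1 and Nrp2, the neuropilins that bind class 3 semaphorins, differed by -3.58 ± 0.21 and -3.23 ± 0.24, and Sema3c, a ligand of that class, by -3.37 ± 0.22. Nrp1 in Cluster 16 was at 175 CPM in S2-1 and 328 CPM in S2-2 and at 695 to 1142 CPM in the other embryos. As leading genes, these 4 were chosen to be higher in Cluster 16 in every embryo. Their ranges in the clusters did not overlap, as in 4.95% of all genes tested.

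Nr2f2, the nuclear receptor also called COUP-TFII, was at 6.2, 124 and 407 CPM in Cluster 16 and at 1.83, 11.1 and 18.2 CPM in Cluster 4, a log2 difference of -3.41 ± 0.18 (SE). As a leading gene it was chosen to be higher in Cluster 16 in 11 of 11 embryos, and its ranges overlapped. Synpr, which encodes the synaptic vesicle protein synaptoporin, differed by -3.40 ± 0.19, Stxbp6, a binding partner of syntaxin, by -3.36 ± 0.16, and Ak4, an adenylate kinase of mitochondria, by -3.28 ± 0.20. Tll1, a metalloprotease, differed by -3.42 ± 0.13. AC124532.2, a gene listed by its clone name, was at 10.7 to 114 CPM in Cluster 16 and at no more than 4.00 CPM in Cluster 4, with a log2 difference of -4.60 ± 0.13.

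Set beside the 6 other PN clusters, most called genes had their highest level elsewhere. Of the 1151 genes higher in Cluster 4, 267 (23.2%) had their highest mean level of the 8 PN clusters in Cluster 4, and 281 had it in Cluster 25, where 7 of 11 embryos had at least 10 nuclei, so that its means are less precise. Of the 947 genes higher in Cluster 16, 245 (25.9%) were highest in Cluster 16 and 239 (25.2%) in Cluster 9. Slit3, Stxbp6 and Ak4 were highest in Cluster 16 of all 25 clusters, and Hs3st3b1, Gm28928 and Pdzd2 in Cluster 4. Other leading genes of Cluster 4 were highest in another PN cluster, namely Hs3st2, Pdzrn4, Abca8a and Adcy8 in Cluster 22, Hs3st5 in Cluster 24 and Kcnip4 in Cluster 25, where it was at 7077 CPM against 827 CPM in Cluster 4. For leading genes of Cluster 16, the highest PN cluster was Cluster 9 for Nrp1 and Sema3c and Cluster 8 for Nr2f2. It was Cluster 24 for Nrp2 and Cluster 25 for Tll1.

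**Figure D3:**
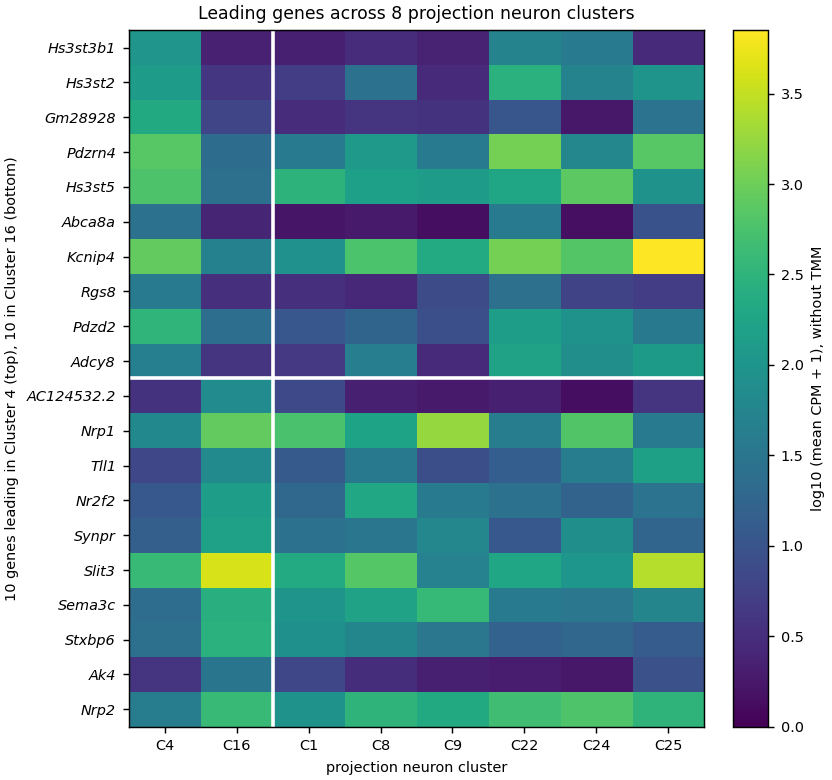
Mean level over embryos, as log10 of CPM + 1 without TMM, of the 10 leading genes of Cluster 4 (top) and the 10 of Cluster 16 (bottom) in the 8 PN clusters. Slit3 is brightest in Cluster 16, while Nrp1 and Sema3c are brighter in Cluster 9 than in Cluster 16.

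The counts of list members here and in the paragraphs on lists that follow stand against 11.7% of all genes higher in Cluster 4 and 9.61% higher in Cluster 16, and no difference between a list and all genes was tested. Genes of corticothalamic layer 6 neurons were mostly higher in Cluster 4. Of 12 such genes, 10 passed the filter, and 9 were higher in Cluster 4 and 0 in Cluster 16, with a median log2 difference of 1.61 against -0.01 for all genes. On library totals 8 were higher in Cluster 4 and 1 in Cluster 16. Hs3st4 differed by 3.48 ± 0.17 (SE), the forkhead factor Foxp2 by 2.80 ± 0.26, the synaptotagmin Syt6 by 2.11 ± 0.13 and the corepressor Tle4 by 1.92 ± 0.19. The remaining gene, Zfpm2, was at -0.31. In Cluster 4, Hs3st4 was at 1214 CPM in S2-1 and 1242 CPM in S2-2 and at 2829 to 3803 CPM in the other 9 embryos. Foxp2 was likewise at 354 and 280 CPM in these embryos against 691 to 1078 CPM, Tle4 at 285 and 234 CPM against 679 to 961 CPM, and Syt6 at 18.2 and 22.1 CPM against 43.0 to 69.3 CPM. Without both embryos the log2 differences were 3.07 for Foxp2 and 2.14 for Tle4.

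Of 13 genes of subcerebral layer 5 neurons, 10 passed the filter, 4 were higher in Cluster 4, 2 in Cluster 16 and 4 were not called, with a median of 0.55, where 11.7% and 9.61% of all genes were called. On library totals 3 and 2 were higher. Ldb2, a cofactor of LIM proteins, differed by 1.68 ± 0.15 (SE), the cadherin Cdh13 by 1.18 ± 0.04, and Bcl11b, the factor also called CTIP2, by 0.79 ± 0.05. Bcl11b was at 1083 to 1588 CPM in Cluster 4 and at 619 to 799 CPM in Cluster 16. Crym, which names Cluster 16, and Tcerg1l were the members higher in Cluster 16. Of 12 callosal and upper-layer genes, 10 passed the filter, 4 were higher in Cluster 4 and 3 in Cluster 16, against the same 11.7% and 9.61%. Lpl, which encodes lipoprotein lipase, was higher in Cluster 4 by 2.72 ± 0.31, on 434 against 20 UMIs. The LIM genes Lhx2 and Lmo4 were higher in Cluster 16, at -2.25 ± 0.10 and -1.86 ± 0.12. Of 9 subplate and claustrum genes, 4 passed the filter, with Gnb4 higher in Cluster 4 and Ntng2 and Tmem178 higher in Cluster 16.

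Genes known to be graded towards caudal cortex were mostly higher in Cluster 16, whereas those graded towards rostral cortex went both ways. Of 8 caudal genes 7 passed the filter, and 6 were higher in Cluster 16 (9.61% of all genes) and 1 in Cluster 4 (11.7%), with a median of -2.22 against -0.01 for all genes. Crym, from which Cluster 16 was named, is among the 6, so the count in part restates the authors' label. Nr2f1 was at 133 to 307 CPM in Cluster 16 and at 51.5 to 90.2 CPM in Cluster 4, a difference of -1.54 ± 0.12 (SE), and the bHLH factor Bhlhe22 differed by -2.22 ± 0.12. The caudal gene higher in Cluster 4 was Tenm3, at 0.58 ± 0.05. Some of the caudal genes were higher still in other PN clusters (CPM without TMM). Nr2f1 was at 325 CPM in Cluster 8 against 218 in Cluster 16, and Nr2f2 at 200 against 136. Lhx2 was at 219 CPM in Cluster 9 against 151 in Cluster 16. Crym and Bhlhe22 were highest of the 8 PN clusters in Cluster 16. Cluster 4 ranked 7 or 8 of the 8 for Nr2f1, Nr2f2, Lhx2 and Bhlhe22, but 2 for Crym. Of 6 rostral genes 4 passed the filter, of which Etv5 and Tbr1 were higher in Cluster 4 and Lmo4 in Cluster 16. Tbr1 was at 86.2 to 118 CPM in Cluster 4 and at 29.4 to 82.0 CPM in Cluster 16. The rostral name of Cluster 4 could thus be checked on few genes.

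Of 5 genes listed for hippocampal neurons, 4 passed the filter, 3 (Nr2f2, Zbtb20 and Lef1) were higher in Cluster 16, and Prox1 was not called. In CPM without TMM, these 5 genes together came to 329 ± 83.4 CPM (SD, n = 11) in Cluster 4, from 229 to 478, and 2292 ± 759 CPM in Cluster 16, from 978 to 3290. Their sum was higher in Cluster 16 in 11 of 11 embryos. Most of it was Zbtb20, at 294 and 2045 CPM, and the other 4 genes summed to 35.2 and 247 CPM. Of the 8 PN clusters, Zbtb20 and Lef1 were highest in Cluster 16 and Nr2f2 in Cluster 8. Of all 25 clusters, Zbtb20 was highest in Cluster 3, at 5057 CPM. Lef1 was highest in Cluster 2 (243 against 101 CPM in Cluster 16) and Nr2f2 in Cluster 23 (362 against 136 CPM). These genes are thus not particular to Cluster 16. Zbtb20, a zinc finger factor of hippocampal neurons, differed by -2.63 ± 0.28 (SE) and Lef1, a factor of Wnt signalling, by -2.60 ± 0.19. Zbtb20 in Cluster 16 was at 417 CPM in S2-1, where Cluster 4 had 418 CPM, and at up to 2952 CPM in other embryos. Of 6 thalamic genes 4 passed the filter, and Lhx9 alone was called, higher in Cluster 16 by -2.79 ± 0.15. The 6 genes summed to 71.3 CPM in Cluster 4 against 124 CPM in Cluster 16, but without Lhx9 the other 5 summed to 61.3 and 54.5 CPM. The part of other cell types in these differences was not tested.

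**Figure D4:**
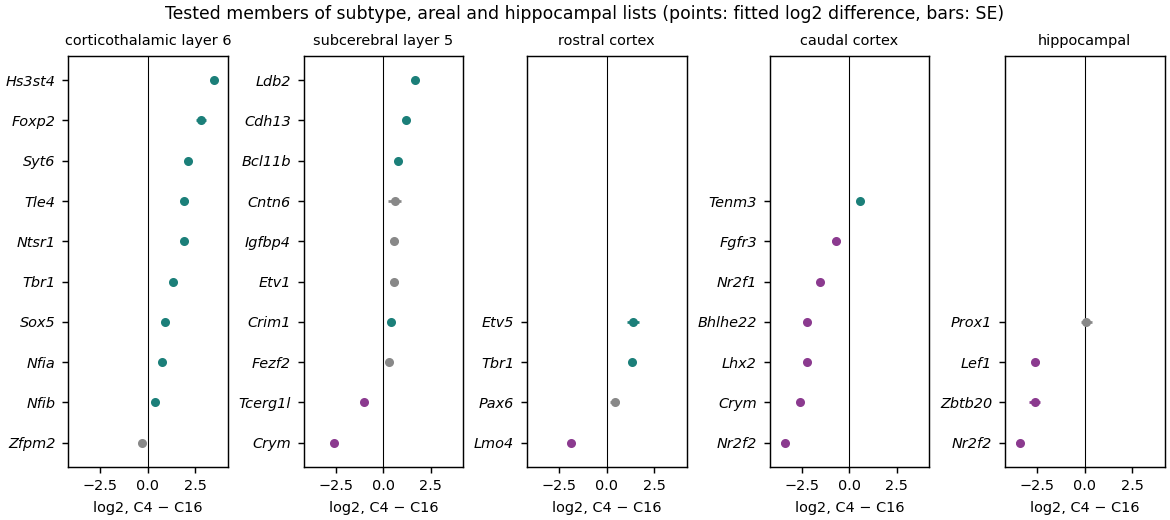
Log2 difference (Cluster 4 minus Cluster 16) with its SE for the tested genes of 5 subtype, areal and hippocampal lists, green where higher in Cluster 4, purple where higher in Cluster 16 and grey where not called. The corticothalamic genes lie mostly to the side of Cluster 4 and the caudal and hippocampal genes to the side of Cluster 16.

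Of 13 genes of thyroid hormone handling 7 passed the filter, and 5, Crym among them, were higher in Cluster 16 (9.61% of all genes) and 0 in Cluster 4 (11.7%). Cluster 16 was named from Crym, so the place of Crym in this count restates the authors' label. Slc16a10, a transporter of aromatic amino acids and thyroid hormone, was at 10.7 to 34.1 CPM in Cluster 16 and at 7.32 to 19.9 CPM in Cluster 4, a difference of -0.71 ± 0.14 (SE). It was higher in Cluster 16 in 11 of 11 embryos, with ranges that overlapped. Of 9 melanocortin genes, 6 were in the tables and 1 passed the filter without being called.

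Guidance families held genes higher in either cluster. Of 20 tested genes of the Slit, Robo and netrin families, 5 were higher in Cluster 4 and 7 in Cluster 16. The receptor Robo2 was higher in Cluster 4 by 1.02 ± 0.26 (SE), while the ligand Slit2 was higher in Cluster 16 by -2.09 ± 0.13 and the netrin receptor Neo1 by -1.13 ± 0.05. Of 27 semaphorin, plexin and neuropilin genes, 5 were higher in each cluster, among them Sema3f in Cluster 4 at 1.39 ± 0.12. On library totals the counts were 5 and 9 for the Slit families and 5 and 8 for the semaphorins. Of 15 Eph and ephrin genes, 3 were higher in each cluster, with Epha7 at 0.75 ± 0.14 and Epha6 at -2.13 ± 0.25, and on library totals 2 and 3 were.

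Of 20 cadherins and protocadherins, 12 were higher in Cluster 4 and 4 in Cluster 16, with a median of 0.63. Cdh4 was at 313 to 754 CPM against 43.4 to 138 CPM, and Cdh6 and Cdh12 differed by 2.44 ± 0.26 (SE) and 2.34 ± 0.25. Pcdh17 was higher in Cluster 16 by -1.86 ± 0.10. Of 40 contactins and synaptic adhesion genes, 19 were higher in Cluster 4 and 6 in Cluster 16. Lrrtm3, a postsynaptic organizer that lies within Ctnna3 on the other strand, was at 305 to 917 CPM against 24.8 to 92.7 CPM, and the strand used for counting is not stated. Adgrl3, a latrophilin, was higher in Cluster 16 by -1.21 ± 0.07.

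Receptor subunits of the same family were found higher in either cluster. Of 20 glutamate receptor genes, 12 were higher in Cluster 4 and 5 in Cluster 16. The kainate receptor gene Grik3 was at 777 to 1061 CPM in Cluster 4 and 193 to 385 CPM in Cluster 16, and Grm5, a metabotropic receptor, differed by 1.55 ± 0.11 (SE). The kainate receptor gene Grik4 was at 2.44 to 13.3 CPM in Cluster 4 and 27.5 to 136 CPM in Cluster 16, and the NMDA receptor gene Grin2a was at 13.4 to 40.5 against 84.7 to 292 CPM. Of 12 genes of GABA-A receptors and chloride transporters, 6 were higher in Cluster 4 and 4 in Cluster 16. Among the alpha subunits, Gabra5 was higher in Cluster 4 by 3.35 ± 0.16 and Gabra2 in Cluster 16 by -3.10 ± 0.19. Gabra2 was at 667 to 1183 CPM in Cluster 16 and 67.6 to 206 CPM in Cluster 4. Slc12a5, the neuronal chloride exporter KCC2, was higher in Cluster 4 by 1.07 ± 0.22, and Slc12a2, the importer NKCC1, was higher in Cluster 16 by -0.95 ± 0.07.

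Of 12 tested genes of neuromodulator receptors and endocannabinoid enzymes, 3 were higher in Cluster 4 and 4 in Cluster 16, with the opioid receptor Oprm1 at 1.31 ± 0.18 (SE) and the nicotinic subunit Chrna7 at -1.60 ± 0.09. Of 24 potassium channel genes, 10 were higher in Cluster 4 and 5 in Cluster 16, and Kcnh5 differed by 2.36 ± 0.12. Of 24 calcium and sodium channel genes, 11 were higher in Cluster 4 and 6 in Cluster 16, or 9 and 6 on library totals. Slc8a3, a sodium and calcium exchanger, was at 310 to 395 CPM against 39.1 to 85.8 CPM. Of 8 neurotrophin and neuregulin genes, 4 were higher in Cluster 4 and 2 in Cluster 16, with Nrg2 at 1.86 ± 0.10 and Ntrk3 at -0.84 ± 0.05. Of 22 presynaptic genes, 4 were higher in Cluster 4, 3 in Cluster 16 and 15 were not called, and on library totals 2 and 4 were higher.

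**Figure D5:**
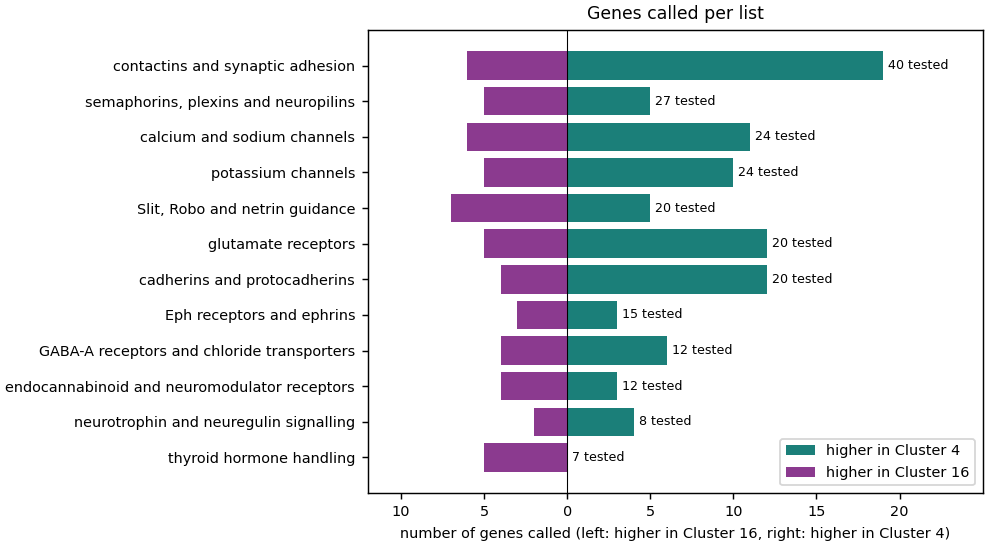
Number of genes called in each of 12 families, with bars to the right for genes higher in Cluster 4, bars to the left for genes higher in Cluster 16, and the number tested beside each. Cadherins and glutamate receptors hold 12 genes higher in Cluster 4 each, against 4 and 5 higher in Cluster 16.

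Genes of neuronal maturation did not go one way. Of 8 pan-neuronal and PN genes, Tbr1 and Map2 were higher in Cluster 4 (Map2 not on library totals), Slc17a6 and Rbfox3 in Cluster 16, and 4 were not called. Of 7 tested genes of early PN and intermediate progenitors, 1 was higher in Cluster 4 (Sox4, at 0.81 ± 0.07 SE) and 4 were higher in Cluster 16. The median log2 difference of the 7 was -0.51. The 4 were Sema3c, a leading gene of Cluster 16, and Unc5d, Sstr2 and Igfbpl1, at 2.03-fold, 1.94-fold and 1.42-fold. Among immediate early genes, Nr4a3 and Nr4a1 were higher in Cluster 16 by -1.40 ± 0.06 and -0.64 ± 0.18, and Btg2 was higher in Cluster 4 by 0.63 ± 0.18.

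Genes of other cell types were counted in both clusters, and their part in the differences above was not tested. The 8 radial glia genes summed to 155 CPM (125 to 174) in Cluster 4 and 111 CPM (78.3 to 140) in Cluster 16, in CPM without TMM. Slc1a3 was at 113 and 63.1 CPM of these and the other 7 genes summed to 42.0 and 48.3 CPM, and Vim was called higher in Cluster 16. The 5 Cajal-Retzius genes summed to 194 CPM (136 to 340) and 119 CPM (36.3 to 243). Reln was at 188 and 106 CPM of these, and the other 4 genes summed to 6.03 and 12.8 CPM, the other way. Of the 5, Reln alone passed the filter and was higher in Cluster 4 by 1.04 ± 0.19 (SE). The 8 striatal genes, Foxp1 among them, summed to 531 CPM (459 to 638) and 444 CPM (308 to 571). The 10 interneuron genes summed to 200 CPM (102 to 406) and 180 CPM (26.2 to 544), and the 5 genes of dividing cells to 75.9 CPM (39.3 to 117) and 62.2 CPM (16 to 132). Meningeal and vascular genes summed to 10.4 CPM in both clusters, and microglia and oligodendrocyte precursor genes to 7.19 and 9.09 CPM. A UMI of Gad1, Gad2 or Dlx6os1 was found in 28.9 to 75.9% of Cluster 4 nuclei in saline embryos and in 9.91 to 22.2% in EtOH embryos, and in 30.4 to 75% of Cluster 16 nuclei in saline and 4.26 to 18.9% in EtOH embryos. Without these nuclei, 929 genes were higher in Cluster 4 and 766 in Cluster 16. Of all the genes of these lists in the tables, 1 was at 0 in Cluster 16, in the list of microglia and oligodendrocyte precursors.

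UMIs per nucleus did not differ between the clusters beyond the spread, whereas genes per nucleus did. The median UMIs per nucleus were 5239, 8755.5 and 12753 in the lowest, median and highest embryo of Cluster 4 and 6161, 8698 and 12815 in Cluster 16. The paired log2 difference was 0.01 on average (two-sided exact permutation test, n = 11, p = 0.752). Thinned to 2000 UMIs, nuclei of Cluster 4 had fewer genes in 11 of 11 embryos, with means of 1083 genes in Cluster 4 and 1127 in Cluster 16. The mean difference was -44.1 genes (two-sided exact permutation test, n = 11, p = 0.000977, the smallest that 11 pairs allow). The clusters were drawn from these same nuclei and counts, so this difference describes them and is no independent evidence.

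The last question was whether EtOH altered the contrast between the clusters. Nuclei of Cluster 4 per nucleus of Cluster 16 were 2.52, 3.11 and 7.25 in the lowest, median and highest saline embryo and 2.35, 3.05 and 7.72 in EtOH embryos. The difference in mean log2 ratio was 0.06, smaller than the spread between embryos (two-sided exact permutation test, n = 5 and 6, p = 0.900, and p = 0.924 within batches). Of 9854 genes, 0 (0.0%) had a cluster difference that differed between treatments at an adjusted p under 0.05 in edgeR, with 450 at an unadjusted p under 0.05, and DESeq2 called 5.

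Within Cluster 4, 82 of 11402 genes (0.719%) were called between EtOH and saline embryos, 38 higher and 44 lower after EtOH (edgeR's quasi-likelihood test). Within Cluster 16, 45 of 8509 genes (0.529%) were called, 24 higher and 21 lower. The 2 genes called in both, Gm26909 and Rps27a, were 2.44% of the Cluster 4 calls and 4.44% of the Cluster 16 calls. These counts come from few embryos and dams, and they varied with the setting. Cluster 4 had 1 call with counts summed per dam, 1 with batch as a covariate, 0 without S2-1 and S2-2, and 1412 without S2-4. Cluster 16 had 7 calls per dam, 47 with batch, 5 without S2-1 and S2-2, and 463 without S2-4. EtOH nuclei also held fewer UMIs, with mean embryo medians of 8037 against 11412 in Cluster 4 and 8151 against 10927 in Cluster 16, and with nuclei thinned to 2000 UMIs 5 of 6603 and 11 of 3775 genes tested were called. The interneuron UMIs given above, at full depth, were found in fewer nuclei of EtOH embryos in both clusters. Their part in these calls was not tested. Among the leading genes, Sema3c was at 33.8 ± 7.12 CPM in saline (SD, n = 5) and 16.5 ± 3.76 CPM in EtOH embryos (SD, n = 6) of Cluster 4, a log2 change of -0.99 ± 0.16 (SE). In Cluster 16 Sema3c was at 238 ± 88.1 and 250 ± 61.9 CPM, and the difference between the clusters in its response did not pass the test (-0.93 ± 0.36, SE). The Notch effector Rbpj was lower after EtOH in Cluster 4 (-0.49), and the zinc finger gene Zfhx4 (-1.38) and the deacetylase gene Hdac9 (-0.73) were lower in Cluster 16. Of the alternatives run for each, Rbpj lost its call in 14 of 18, Sema3c in 12 of 18, Zfhx4 in 3 of 17 and Hdac9 in 2 of 18, and the calls of Rbpj and Sema3c were lost with batch as a covariate, per dam and without S2-1 and S2-2.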

How the data were processed

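Cortical nuclei of 5 saline and 6 EtOH embryos were analysed, and embryo S2-3 was not analysed here. Reads had been aligned by the authors to mm10 using Cell Ranger, and the authors then filtered and clustered the nuclei, and deposited raw UMI counts of 23513 genes per embryo and cluster. All 275 tables held whole numbers. The strand of counting is not given in the sources used here. No doublet caller was run.

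Counts were summed per embryo over Cluster 4 and over Cluster 16, each sum holding at least 10 nuclei, with Python 3.11.15. Depth ranged from 255534 to 8910835 UMIs per sum. Sums were fitted with edgeR 4.0.16 in R 4.3.3 (filterByExpr, TMM, robust quasi-likelihood, embryo as block), with Benjamini-Hochberg adjustment at 0.05 and folds over 1.25 or under 0.8 called. DESeq2 1.42.0 was an alternative. Each SE of a fitted log2 difference is its size divided by the square root of the F value of its quasi-likelihood test. It is not the spread of the embryos' own differences. The paired, interaction and EtOH fits were each tested on simulated data. P-values of the paired and interaction fits, and of the tests on UMIs and genes per nucleus, rest on how the within-embryo cluster differences vary. Those of the EtOH fits and of the nuclei ratio rest on the spread between embryos. All of these take littermates as independent.

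Pairing comes from the embryo, and deviations of the 2 sums of an embryo correlated at 0.150 to 0.653 over 4031 genes, with the own partner as the best match in 5 of 11 embryos. Libraries of 1 dam differed by more than sampling noise in all 11 pairs, at a chi-square per gene of 2.38 to 17.7. Named genes were the cluster markers, the leading genes, and up to 4 called per direction of each list. Leading genes were the 10 per direction with the largest fold among called genes at a mean of at least 20 CPM in the higher cluster. The same direction in all 11 embryos was also required of leading genes. Nr2f1, Zfpm2 and the 2 genes called in both clusters were named after their values were seen. Results for some genes are not reported here. Comparisons, members and lists were chosen with earlier results of these data known. Alternatives covered scaling, filters, depth, batch, block and embryos left out.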

Additional observations from a re-analysis of the deposited data

Results flagged for a closer look

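The 5 saline and the 6 EtOH embryos were examined for 26 genes and measures, mostly leading genes, which made 52 groups. In 6 groups the gap of an embryo to the nearest other exceeded the 95% limit for the group size. Of these 6, 4 were saline embryo S2-1 with its 28 nuclei of Cluster 16. Chance gives about 1 in 20 for a single group. The same embryos recur in all groups, so the groups are not independent and the count cannot be set against that rate. S2-1 had a log2 difference in median UMIs per nucleus (Cluster 4 minus Cluster 16) of 0.35 against a saline median of -0.01. Its log2 difference was -0.18 for Crym against a median of -2.15, -1.83 for AC124532.2 against -4.16, and -1.28 for Nrp1 against -3.37. EtOH embryo E1-1, with 47 nuclei of Cluster 16, had a log2 difference in UMIs of -0.23 against an EtOH median of 0.01. Its difference in genes per nucleus at 2000 UMIs was -34.1 against a median of -49.8.

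Saline embryos S2-1 and S2-2, of the same dam, had the lowest Cluster 4 sums together in 268 (23.3%) of the 1151 genes higher in Cluster 4, against 635 (6.44%) of all 9854 genes tested. Saline embryos S1-1 and S1-2 were both the highest in 166 (14.4%) of the 1151, against 933 (9.47%) of all genes tested. In Cluster 16 sums, S2-1 and S2-2 were both the lowest in 69 (7.29%) of the 947 genes higher there, against 420 (4.26%) of all genes tested. S2-1 and EtOH embryo E2-1 were both the lowest in 103 (10.9%) of the 947, against 515 (5.23%). The cause was not tested.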

How the results depend on the processing

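The paired contrast gave 1151 genes higher in Cluster 4 and 947 higher in Cluster 16. With a fold of 2 these were 357 and 236, with nuclei thinned to 2000 UMIs 624 and 529 of 5149 genes tested, and with library totals 870 and 1578. Without a replicate block (the embryo) they were 1039 and 879, with DESeq2 1119 and 906, and with each embryo left out 1057 to 1167 and 884 to 1032. The alternative without S2-1 and S2-2, chosen after seeing the data, gave 1154 and 1057. No named gene reversed its direction. The count for cluster by treatment was 0, and it was 29 without the filter, 5 with DESeq2, 2 thinned, 1 without the 5% of nuclei with the most UMIs, 14 in batch 1 alone and 0 to 3 with embryos left out. The EtOH calls were 82 in Cluster 4 and 45 in Cluster 16, and they were 408 and 335 without the filter, 484 and 89 with DESeq2, 1 and 47 with batch, 1 and 7 per dam, 5 and 11 thinned, 0 and 5 without S2-1 and S2-2, and 0 to 1412 and 0 to 463 with embryos left out. The log2 difference of the nuclei ratio was -0.14 to 0.32 with embryos left out, that of UMIs per nucleus -0.023 to 0.035, and that of genes at 2000 UMIs -47.3 to -43.0. The summed level of dividing cell genes differed by 13.7 CPM and by -2.16 CPM when thinned. The causes were not tested.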

Other observations

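Called genes spanned longer stretches of the genome than tested genes. The median span was 34.7 kb over all genes tested, 84.7 kb for genes higher in Cluster 4 and 64.8 kb for genes higher in Cluster 16. Ribosomal protein genes made up 0.0967% of UMIs in Cluster 4 and 0.111% in Cluster 16, and Malat1, a nuclear RNA, 1.69% and 1.98%, both higher in Cluster 16 in 11 of 11 embryos.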
